A study of Mus musculus with 6 samples.

Results

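Annexins are cytosolic proteins that bind phospholipid membranes when calcium is present. Each member joins a conserved core, which carries the calcium and phospholipid sites, to a variable N-terminal tail that binds partners such as the S100 proteins. The family is known for holding vesicles to membranes, for roles in endocytosis and exocytosis, and for sealing torn plasma membrane. The annexins were described here in 393P cells, a murine lung adenocarcinoma line whose cells convert from an epithelial to a mesenchymal state when they express ZEB1 ectopically. ZEB1 is a transcription factor that represses epithelial genes. Members were taken by gene symbol, Anxa1 to Anxa9 and Anxa11, and the rule used no measured value. These were 10 of the 24214 features counted, and all 10 passed the filter on low counts.

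RNA sequencing compared 3 samples of 393P cells transfected with a ZEB1 expression vector (393P_ZEB1) with 3 samples of 393P cells that received the control vector (393P_vector). Both groups were KP lung cancer cells of strain C57BL/6, grown in the same serum-containing medium, and differed by the transfected vector alone according to the labels. Nothing states that the replicates came from separate cultures or that more than 1 transfectant was used per vector, so p-values measure the spread between these samples. The line is a single model, and of 7 lung lineage markers 5 were too low to test, with Scgb1a1 at 0 in all samples and Nkx2-1, Sftpb and Sftpc at or below 0.0602 CPM, a count scaled to the TMM-normalized library size. Foxj1, a marker of ciliated cells, was at 2.79 ± 0.165 CPM (SD, n = 3) in 393P_vector cells and Krt5, a basal cell keratin, at 0.275 ± 0.0836 CPM, and both fell with ZEB1 (log2 fold changes -3.89 and -1.70).

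Total counts were between 54442450 and 79158012 per sample, and reads on the 10 annexins made up 0.439% to 0.579% of them. Zeb1 itself was at 21.5 ± 0.435 CPM (SD, n = 3) in 393P_vector cells and rose to 51.7 ± 3.01 CPM (n = 3) with the ZEB1 vector (log2 fold change 1.26, edgeR adjusted p = 6.06e-05). Of 8 epithelial markers 7 fell and none rose, with a summed level of 4749 to 5420 CPM in 393P_vector and 2763 to 3059 CPM in 393P_ZEB1 samples. That sum was mainly Krt18, Krt19 and Krt8, at means of 2264, 1272 and 894 CPM in 393P_vector cells. Their log2 fold changes were -0.77, -0.39 and -0.61, and Krt19 did not pass (edgeR adjusted p = 0.0809). Cldn4, Esrp1, Epcam, Cdh1 and Esrp2 had log2 fold changes of -8.40, -7.75, -6.53, -4.09 and -1.35. The 8 mesenchymal markers include Zeb1, the gene that the vector expresses, so its rise was set by the design. Of the 8, 7 rose and none fell at an adjusted p under 0.05. Their sums were 7836 to 8675 CPM in 393P_vector and 11087 to 12319 CPM in 393P_ZEB1 samples. Over all tested genes 18.3% rose and 19.3% fell. The remaining marker, Col1a1, had a log2 fold change of -1.24 (edgeR adjusted p = 0.0507). Without 393P_vector replicate 3 it passed as lower (-1.58, adjusted p = 0.00104), as did 26.8% of all tested genes. Leukocyte markers summed to at most 3.53 CPM, endothelial markers to at most 2.46 CPM and fibroblast markers to at most 1.66 CPM in any sample. The part of these cell-state markers in the annexin values was not tested. In bulk RNA, a change in the number of cells that express a gene and a change in RNA per cell cannot be told apart. The 393P_vector replicate 3 stood apart from the others: a limma fit that weights samples by their spread gave it a weight of 0.111, against 0.726 to 3.02 for the other 5, and it was the replicate farthest from its group mean for 8 of the 10 annexins.

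The first question was which annexin mRNAs changed with ectopic ZEB1. Anxa6 rose, Anxa4 and Anxa8 fell, and the other 7 did not pass the test, which was edgeR's quasi-likelihood test with Benjamini-Hochberg adjustment over 13892 genes and a threshold of 0.05. The 1 annexin that rose was 10% of the members, against 18.3% of all tested genes that rose. The 2 that fell were 20% of the members, against 19.3% of all tested genes. In either direction 30% of these 10 annexins passed, against 37.6% of all tested genes. Anxa10 and Anxa13, rare annexin genes outside the members, are not in these shares. Both passed, with log2 fold changes of -1.76 and 1.38, and are described below. The median log2 fold change over the 10 annexins was 0.015, and over all tested genes it was -0.024. In 6 of the 10 annexins the samples of the 2 groups did not overlap in CPM, which was also so for 52.8% of all tested genes.

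**Figure D1:**
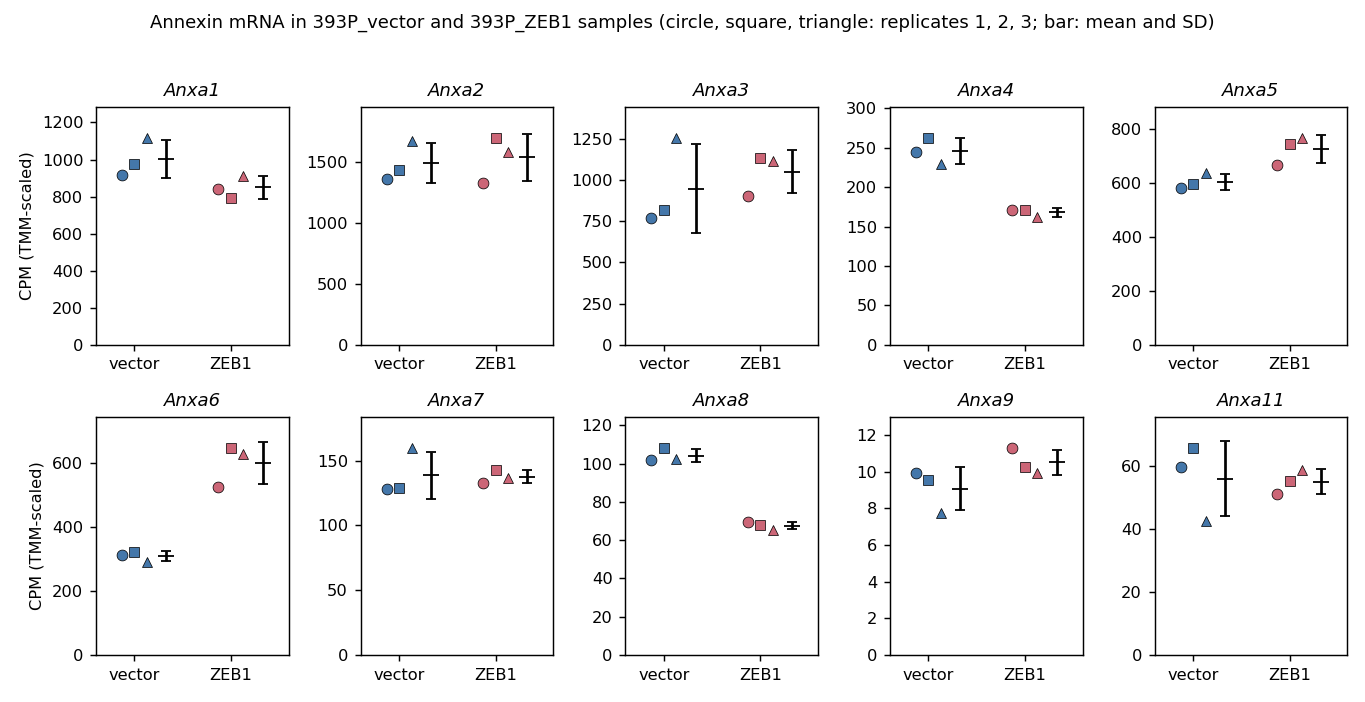
Level of each annexin in every sample, in CPM scaled by TMM normalization, on axes that start at 0. Blue symbols are 393P_vector and red symbols 393P_ZEB1 samples, circles, squares and triangles are replicates 1, 2 and 3, and the bars give the mean and SD of 3 samples. Anxa6 lay between 292 and 323 CPM in 393P_vector samples and between 525 and 647 CPM in 393P_ZEB1 samples.

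Anxa6, which is set apart in the family by a duplicated core and is known for roles in endocytosis and cholesterol handling at membranes, showed the largest change of the 10. It is encoded on the minus strand of chr11:54978962-55033471 (GRCm38). It was at 311, 323 and 292 CPM in 393P_vector replicates 1, 2 and 3 and at 525, 647 and 628 CPM in 393P_ZEB1 replicates 1, 2 and 3. The lowest 393P_ZEB1 sample was above every 393P_vector sample. The means were 309 ± 15.7 and 599.8 ± 65.9 CPM (SD, n = 3 each), a fitted fold of 1.94 (95% interval 1.61 to 2.35) and a log2 fold change of 0.96 (SE 0.12, edgeR adjusted p = 0.000528). Other genes of chromosome 11 also leaned upward, with a median log2 fold change of 0.26 over 1155 tested genes. Of those genes 90.6% had a smaller fold change than Anxa6. Relative to that median the log2 fold change of Anxa6 was 0.69 (t test with the edgeR standard error, adjusted p = 0.00311). In this test, used for each chromosome below as well, the median was taken as free of error.

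Anxa8, a member described at late endosomes and the actin cytoskeleton, fell. Its gene is on the plus strand of chr14:34085990-34100568. It was at 102, 108 and 102 CPM in the 3 393P_vector replicates and at 69.4, 68.0 and 65.4 CPM in the 3 393P_ZEB1 replicates. The groups did not overlap, and the spread within each was small. The means were 104 ± 3.47 and 67.6 ± 2.03 CPM (n = 3 each), a fitted fold of 0.649 (95% interval 0.559 to 0.753) and a log2 fold change of -0.62 (SE 0.092, edgeR adjusted p = 0.00139). Other genes of chromosome 14 had a median log2 fold change of -0.26 over 466 tested genes, and 32.6% of them fell. Relative to that median the log2 fold change of Anxa8 was -0.36 (t test with the edgeR standard error, adjusted p = 0.0204). Of those genes 28.8% had a lower fold change than Anxa8. Whether the change of Anxa8 was separate from that of its chromosome was not tested beyond this.

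Anxa4, which is abundant in epithelia and aggregates phospholipid vesicles in the presence of calcium, fell as well. Its gene is on the minus strand of chr6:86736840-86793584. It was at 245, 263 and 230 CPM in the 3 393P_vector replicates and at 171, 171 and 162 CPM in the 3 393P_ZEB1 replicates. Every 393P_ZEB1 sample was below every 393P_vector sample. The means were 246 ± 16.5 and 168 ± 5.31 CPM (n = 3 each), a fitted fold of 0.684 (95% interval 0.584 to 0.800) and a log2 fold change of -0.55 (SE 0.098, edgeR adjusted p = 0.00349). Of the other 669 tested genes of chromosome 6, 35.3% fell, and their median log2 fold change was -0.36. Relative to this median the log2 fold change of Anxa4 was -0.19 and no longer passed (t test with the edgeR standard error, adjusted p = 0.18). Of the chromosome's other genes 32.3% had a lower fold change than Anxa4. Whether the change of Anxa4 was separate from that of its chromosome was not tested beyond this.

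**Figure D2:**
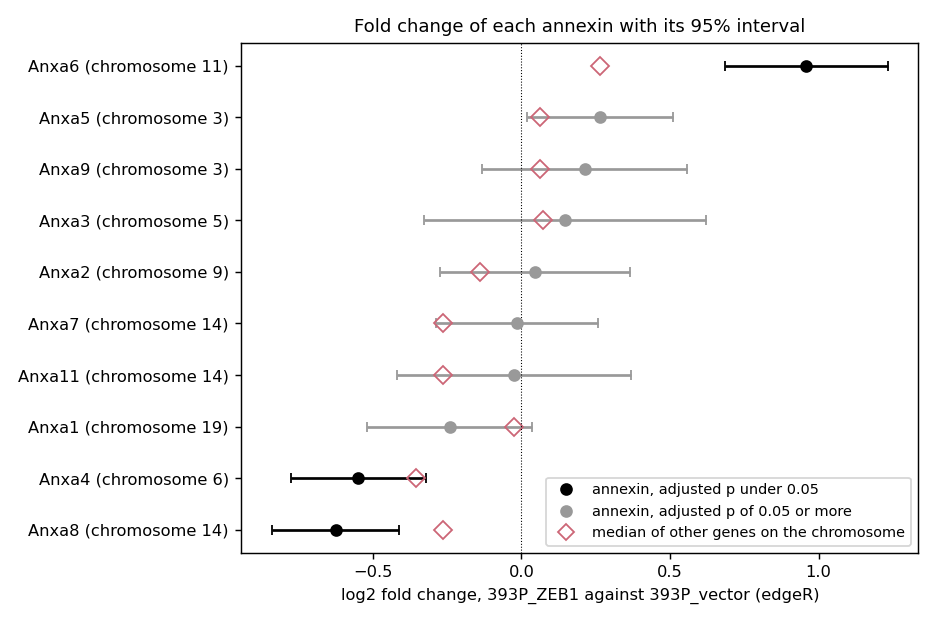
Log2 fold change of each annexin between 393P_ZEB1 and 393P_vector samples with its 95% interval, computed from the edgeR standard error. Open diamonds give the median of the other tested genes on its chromosome. Black points passed the adjusted threshold, and the interval of Anxa6 (log2 0.69 to 1.23) and that of Anxa8 (-0.84 to -0.41) lay beyond their chromosome medians of 0.26 and -0.26.

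The 4 annexins that were most abundant per length did not pass with all samples. Anxa1, also known as lipocortin, binds formyl peptide receptors once outside the cell and limits inflammation. It was at 916, 977 and 1118 CPM in 393P_vector and at 843, 792 and 913 CPM in 393P_ZEB1 samples. The highest 393P_ZEB1 sample was just under the lowest 393P_vector sample, and the log2 fold change of -0.24 (SE 0.12) did not pass (edgeR adjusted p = 0.152). Its 95% interval on the log2 scale was -0.52 to 0.036.

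Anxa5 binds exposed phosphatidylserine and is widely used as a probe for dying cells. It was at 579, 594 and 636.5 CPM in 393P_vector and at 665, 743 and 766 CPM in 393P_ZEB1 samples. All 3 samples with ectopic ZEB1 were above all 3 controls, and the log2 fold change was 0.27 (SE 0.11, 95% interval 0.019 to 0.51). The unadjusted p of the edgeR test was 0.0383 and the adjusted p 0.087. Without 393P_vector replicate 3 the log2 fold change was 0.31 and passed (edgeR adjusted p = 0.013).

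Anxa3, a calcium-dependent phospholipid-binding member, was at 771, 816 and 1257 CPM in 393P_vector and at 900, 1134 and 1115 CPM in 393P_ZEB1 samples. The 393P_vector replicate 3 was above all 5 other samples, at 1.58 times the mean of the other 2 controls. With it the log2 fold change was 0.15 (SE 0.20, edgeR adjusted p = 0.605), and without it 0.40 (adjusted p = 0.00999), so the call for Anxa3 rested on 1 library. Without that library 3 annexins rose, Anxa3, Anxa5 and Anxa6, and 2 fell. In the same fit the shares over all tested genes were also larger, with 26.2% higher and 26.8% lower.

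Anxa2 pairs with the S100A10 protein, binds actin and plasminogen, and is found on endosomes and the plasma membrane. It was at 1361, 1428 and 1673 CPM in 393P_vector and at 1327, 1697 and 1582 CPM in 393P_ZEB1 samples. The groups overlapped, and the log2 fold change of 0.05 (95% interval -0.28 to 0.37) did not pass (edgeR adjusted p = 0.823). The tested genes whose log2 CPM followed that of Anxa2 most closely over the 6 samples were Crip2 (Pearson r = 0.997), Wdr1 (r = 0.993) and Klra5 (r = 0.991). Klra5 was near the detection limit, at 0.131 to 0.421 CPM, and all 6 points share their libraries and scaling.

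Anxa7, Anxa11 and Anxa9 also did not pass. Anxa7, or synexin, which promotes fusion of secretory vesicles, was at 128, 129 and 160 CPM in 393P_vector and at 133, 143 and 136 CPM in 393P_ZEB1 samples (log2 fold change -0.01, SE 0.12, edgeR adjusted p = 0.937). Anxa11, which tethers RNA granules to lysosomes, was at 59.8, 65.7 and 42.5 CPM and at 51.0, 55.3 and 58.7 CPM (log2 fold change -0.03, SE 0.17, adjusted p = 0.921). In both genes the groups overlapped, and the third control was the extreme sample, highest for Anxa7 and lowest for Anxa11.

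Anxa9, an atypical annexin whose core has lost calcium binding, was at 9.93, 9.54 and 7.72 CPM and at 11.3, 10.3 and 9.94 CPM in the same order. The groups were separated by a small gap, and the log2 fold change of 0.21 (SE 0.15, edgeR adjusted p = 0.295) did not pass. For single annexins the exact two-sided permutation test of log2 CPM, 3 samples against 3, cannot give a p below 0.1. It gave that value for the 6 annexins whose groups did not overlap.

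**Figure D3:**
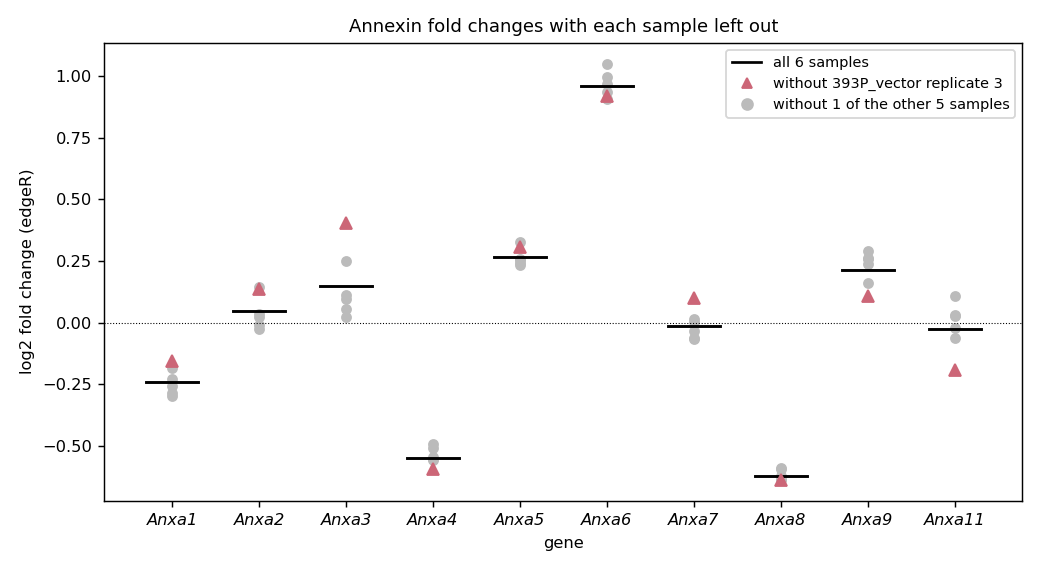
Log2 fold change of each annexin from all 6 samples (black line) and from fits that each omit 1 sample (points). Red triangles are the fits without 393P_vector replicate 3, which moved Anxa3 from 0.15 to 0.40, while Anxa6 stayed between 0.91 and 1.05 and Anxa8 between -0.64 and -0.59 whichever sample was left out.

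Levels of different annexins were compared per transcript length, as RPKM, the count scaled by exon length and library size, recomputed here with the TMM-scaled library sizes. Anxa2 was the most abundant annexin in every sample of both groups, at 1093 ± 121 RPKM in 393P_vector and 1128 ± 139 RPKM in 393P_ZEB1 cells (n = 3 each), above 99.5% of the tested genes in each group. In 393P_vector cells it was followed by Anxa1 (726 ± 74.7), Anxa3 (598 ± 169), Anxa5 (353 ± 17.5), Anxa4 (124 ± 8.28), Anxa6 (117 ± 5.94), Anxa8 (56.2 ± 1.87), Anxa7 (47.0 ± 6.14), Anxa11 (23.5 ± 5.06) and Anxa9 (4.62 ± 0.60 RPKM). The ranges over samples overlapped for Anxa1 and Anxa3 and for Anxa4 and Anxa6, although within each of the 3 samples Anxa1 was above Anxa3 and Anxa4 above Anxa6.

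In 393P_ZEB1 cells the order was Anxa2, Anxa3 (663 ± 82.0), Anxa1 (615 ± 44.0), Anxa5 (424 ± 31.1), Anxa6 (228 ± 25.0), Anxa4 (84.5 ± 2.67), Anxa7 (46.5 ± 1.68), Anxa8 (36.4 ± 1.09), Anxa11 (23.1 ± 1.64) and Anxa9 (5.35 ± 0.36 RPKM). Only the ranges of Anxa3 and Anxa1 overlapped there, and Anxa3 was the higher in 2 of the 3 samples. Anxa4 was above Anxa6 in all 3 393P_vector samples and below it in all 3 393P_ZEB1 samples. Likewise Anxa8 was above Anxa7 in all 3 393P_vector samples and below it in all 3 393P_ZEB1 samples.

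The summed annexin RPKM was 3142 ± 370 in 393P_vector and 3253 ± 273 in 393P_ZEB1 cells (n = 3 each, exact permutation p = 0.9). Anxa1, Anxa2, Anxa3 and Anxa5 together held 88.0% and 87.0% of it (exact permutation p = 0.4). Within that sum the share of Anxa6 was 4.13%, 4.07% and 3.11% in the controls and 6.78%, 7.19% and 7.0% with ectopic ZEB1. The mean shares of Anxa5 were 11.3% and 13.04%. Those of Anxa1 were 23.1% and 19.0%, of Anxa4 3.98% and 2.61%, and of Anxa8 1.80% and 1.13%. For these 5 members the groups did not overlap, and the exact permutation p was 0.1, the smallest possible. The share of Anxa2 was 34.8% in controls and 34.6% with ZEB1 (exact permutation p = 0.9).

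**Figure D4:**
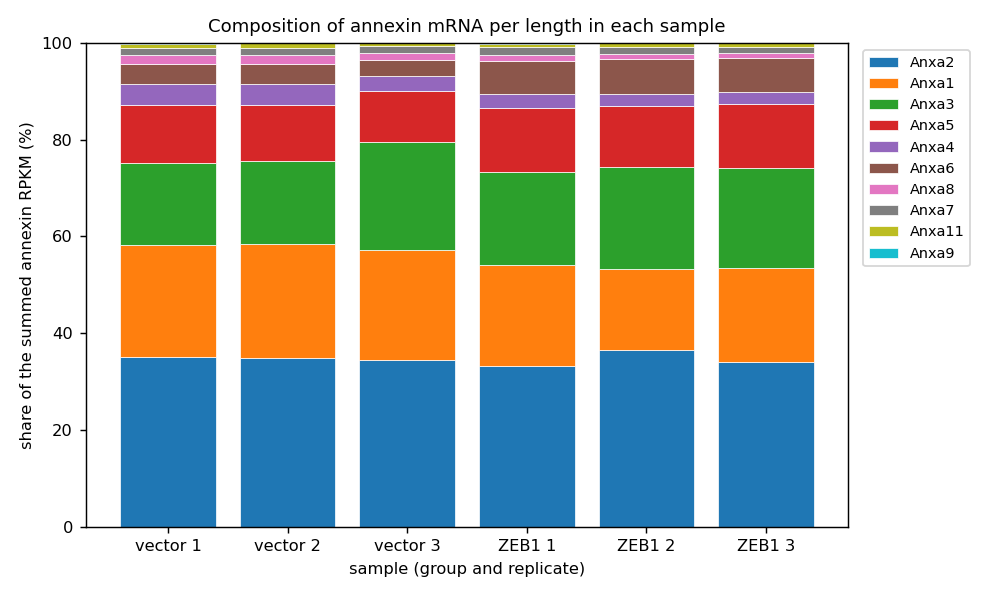
Share of each annexin in the summed annexin RPKM of each sample, in percent, stacked to the full bar. The 4 largest blocks (Anxa2, Anxa1, Anxa3, Anxa5) filled between 86.6% and 90.0% of every bar, and the brown block of Anxa6 was wider in the 3 ZEB1 bars than in the 3 vector bars.

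Most annexins shared no transcript sequence with other genes. In the annotation, 0 of the 35-base stretches of the transcripts of Anxa1, Anxa2, Anxa5, Anxa6, Anxa7 and Anxa8 occurred in a transcript of another gene, and no annexin shared one with another annexin. The shares were 1.92% for Anxa4, 3.19% for Anxa3, 4.68% for Anxa9 and 26.3% for Anxa11, the last mostly with the pseudogene Gm2260, so the level of Anxa11 is uncertain. On the same strand, Anxa3 overlapped Gm42603 over 4.02% and Anxa9 overlapped 6330562C20Rik over 4.53% of exonic bases. Anxa11, Anxa9 and Anxa4 also overlapped genes of the opposite strand, Anxa11os over 4.15%, Mindy1 over 3.42% and Gm44036 over 3.40% of their exonic bases. Whether the counting used strand is not given in the sources used here. Every exon of Anxa1 to Anxa5, Anxa7, Anxa8 and Anxa11 had more than 10 reads in all 6 samples, as had 25 or 26 of the 26 exons of Anxa6 and 11 to 13 of the 14 of Anxa9.

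ZEB1 binds E-box sequences in promoters and represses the miR-200 microRNAs, which pair through their seed with sites in target mRNAs. The upstream sequence of 4 annexins is shown, that of both that fell and of both that held an E-box, read 5′ to 3′ on the gene's strand from 250 bases before the RefSeq start (GRCm38.p6), with each CACCTG or CAGGTG in capitals. The coordinates are chr6:86793585-86793834 (minus strand) for Anxa4, chr14:34085729-34085978 (plus strand) for Anxa8, chr14:20479942-20480191 (minus strand) for Anxa7 and chr14:25841905-25842154 (plus strand) for Anxa11.
Anxa4: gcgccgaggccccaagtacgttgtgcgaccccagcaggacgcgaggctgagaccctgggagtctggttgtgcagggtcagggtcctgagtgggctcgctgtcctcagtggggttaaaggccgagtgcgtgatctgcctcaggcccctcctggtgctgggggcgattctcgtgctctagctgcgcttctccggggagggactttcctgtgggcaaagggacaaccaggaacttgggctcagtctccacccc
Anxa8: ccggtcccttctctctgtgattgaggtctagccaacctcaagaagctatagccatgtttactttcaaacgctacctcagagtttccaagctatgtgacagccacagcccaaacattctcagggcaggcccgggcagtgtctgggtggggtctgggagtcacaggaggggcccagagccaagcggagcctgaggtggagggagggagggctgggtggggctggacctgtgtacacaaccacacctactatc
Anxa7: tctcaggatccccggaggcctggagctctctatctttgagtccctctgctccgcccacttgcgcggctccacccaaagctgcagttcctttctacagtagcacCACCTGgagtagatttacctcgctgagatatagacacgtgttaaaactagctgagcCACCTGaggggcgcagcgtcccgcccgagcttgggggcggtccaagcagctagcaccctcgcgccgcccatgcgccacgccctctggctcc
Anxa11: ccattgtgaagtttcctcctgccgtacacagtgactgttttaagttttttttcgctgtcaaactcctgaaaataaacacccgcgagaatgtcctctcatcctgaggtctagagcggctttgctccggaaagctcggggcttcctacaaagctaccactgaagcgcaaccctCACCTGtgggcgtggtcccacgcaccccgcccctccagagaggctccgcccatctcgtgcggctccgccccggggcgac

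The search covered windows of 300 bases, 250 before and 50 after each start, for CACCTG and its reverse complement CAGGTG, which between them cover both strands. RefSeq promoters were matched for 8 of the 10 annexins, with 11 windows in all. Those of Anxa3 and Anxa6 were not matched. The letters occurred in 2 windows, against 20.2% of all 32851 promoter windows. The Anxa11 window held CACCTG with its first base at -79, and 1 of the windows of Anxa7 held it at -147 and at -91 and CAGGTG once after the start. Neither of these genes passed the test between the groups. The windows of Anxa4 and Anxa8, the members that fell, held none, which says only that these letters were not in these windows.

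The miR-200 family falls into groups by seed, bases 2 to 8, which are in capitals below for 1 member of each.
mmu-miR-200b-3p: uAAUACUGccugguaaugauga
mmu-miR-200a-3p: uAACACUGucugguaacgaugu

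The matching sites, CAGTATT for the first and CAGTGTT for the second, were searched in 3′ untranslated regions of GENCODE M21, using for each gene its longest coding transcript. Of the 10 annexins, 0 held either site, against 30.5% of 11978 tested genes with such a region. The annexin regions were 286 (Anxa1) to 1218 bases (Anxa7) long. The comparison was not matched for length, so it cannot show that annexins lack sites more often than other genes. Other kinds of seed match and other transcripts were not searched.

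Genes that work with annexins were read from lists set out by function. In the fit with all samples 18.3% of all tested genes rose and 19.3% fell, the shares to set beside each list's counts. Among 5 S100 proteins, small partners of annexin tails, 1 rose and 1 fell, and the median log2 fold change was 0.34, against -0.02 over all tested genes. S100a4, linked to cell motility, was at 18.5, 19.4 and 19.2 CPM in 393P_vector and at 79.6, 109 and 124 CPM in 393P_ZEB1 samples (log2 fold change 2.45, SE 0.17, edgeR adjusted p = 2.78e-05), with no overlap. S100a10, the partner of Anxa2, was at 764, 799 and 572 CPM and at 563, 434 and 551 CPM. Its groups did not overlap by a narrow margin, and the log2 fold change of -0.46 did not pass (edgeR adjusted p = 0.0608). S100a11, the partner of Anxa1, fell (log2 fold change -0.91, adjusted p = 0.0395), from 9.24, 9.502 and 18.6 CPM to 6.86, 7.27 and 5.72 CPM, but 47.4% of its 35-base stretches occur in other genes, mostly the pseudogene Gm12854, so its level is uncertain. The third control was the highest sample for S100a11, and without it the log2 fold change was -0.50 (edgeR adjusted p = 0.011). S100a10 passed without that control (log2 fold change -0.60, adjusted p = 0.00115).

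Of 4 other binding partners none passed, against 37.6% of all tested genes in either direction, and their median log2 fold change was -0.01. Ahnak, a giant scaffold bound by the Anxa2 and S100a10 complex, was at 6917 ± 539 and 6319 ± 765 CPM (n = 3 each). Pdcd6, a calcium sensor that binds Anxa7 and Anxa11, was at 118 ± 10.7 and 123 ± 2.55 CPM. Sri, or sorcin, a partner of Anxa7, was at 72.7 ± 31.2 and 68.9 ± 3.12 CPM, with the third control at 109 CPM. Pla2g4a, a phospholipase whose activity Anxa1 can inhibit, was at 118 ± 25.5 and 141 ± 5.20 CPM. Without 393P_vector replicate 3 the counts were 3 higher and 2 lower among the S100 proteins and 2 higher and 0 lower among these partners, in a fit that called 26.2% of all tested genes higher and 26.8% lower. Sri then rose (log2 fold change 0.33, against -0.08 with all samples). The Anxa1 receptors were not expressed at a testable level, with Fpr1 at 0 in all 6 samples and Fpr2 and Fpr3 at or below 0.0540 CPM.

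In the plasminogen system, whose proteases assemble on Anxa2 at the cell surface, 1 of 6 tested genes rose and 2 fell. Over all tested genes 18.3% rose and 19.3% fell. The median log2 fold change of the list was -0.14. Plau, urokinase, was at 675, 697 and 590 CPM in 393P_vector and at 53.0, 55.7 and 58.9 CPM in 393P_ZEB1 samples (log2 fold change -3.55, SE 0.12, edgeR adjusted p = 8.66e-07). Plat, the tissue activator whose binding to Anxa2 is best known, moved the other way, from 31.9 ± 2.16 to 57.1 ± 4.72 CPM (n = 3 each, log2 fold change 0.84). Ctsb, a lysosomal protease, fell by 0.53 on the log2 scale. Plaur, the urokinase receptor, did not pass, at 152 ± 14.4 and 183 ± 23.1 CPM, and Plg itself was at most 0.0819 CPM.

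Of 15 tested membrane repair genes 3 rose and 1 fell, with a median log2 fold change of 0.05. The shares over all tested genes were 18.3% higher and 19.3% lower. Dysf, or dysferlin, which acts with annexins at membrane lesions, was at 9.52, 8.41 and 5.28 CPM in 393P_vector and at 1.03, 1.03 and 1.38 CPM in 393P_ZEB1 samples (log2 fold change -2.75, SE 0.27). Its relative Myof, myoferlin, was far more abundant and rose from 1844 ± 108 to 2608 ± 110 CPM (n = 3 each, log2 fold change 0.50). The membrane-shaping ATPases Ehd4 and Ehd2 rose by log2 fold changes of 0.58 and 0.51. In the fit without 393P_vector replicate 3, with its larger share of calls over all genes, the counts were 6 higher and 4 lower.

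Phosphatidylserine, the lipid that annexins bind, is moved across the membrane by scramblases and flippases. Among 13 tested genes of these kinds 4 rose and 3 fell (median log2 fold change 0.17), against 18.3% and 19.3% of all tested genes. The flippase subunits Atp8b1 and Atp8a1 fell most, from 6.20 ± 0.555 to 0.202 ± 0.0474 CPM (log2 fold change -4.94) and from 17.4 ± 1.82 to 1.47 ± 0.233 CPM (-3.57). The scramblase Ano6 fell by 0.30 on the log2 scale. The scramblase family genes Plscr4, Xkr8 and Plscr3 rose by log2 fold changes of 1.57, 0.46 and 0.42. In the fit without 393P_vector replicate 3, with its larger share of calls over all genes, the counts were 6 higher and 4 lower.

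Of 13 tested proteins that bind calcium and phospholipid through a C2 domain instead of an annexin core, 3 rose and 4 fell (median log2 fold change 0.32). Again the shares over all tested genes were 18.3% higher and 19.3% lower. Esyt2, which tethers the endoplasmic reticulum to the plasma membrane, rose from 360.5 ± 14.7 to 616 ± 37.0 CPM (log2 fold change 0.77), and the Ras regulators Rasal1 and Rasal2 rose by 2.88 and 0.32, the first from a low level of 0.0949 ± 0.0588 CPM. Cpne7 and Esyt3, both near the detection floor in 393P_ZEB1 cells, changed by -2.64 and -1.79, and the kinase Prkca by -0.52. The 2 remaining annexin genes were both rare. Anxa10 fell from 1.99 ± 0.716 to 0.587 ± 0.159 CPM (log2 fold change -1.76, edgeR adjusted p = 0.006) and Anxa13 rose from 0.364 ± 0.142 to 0.938 ± 0.176 CPM (1.38, adjusted p = 0.0129).

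**Figure D5:**
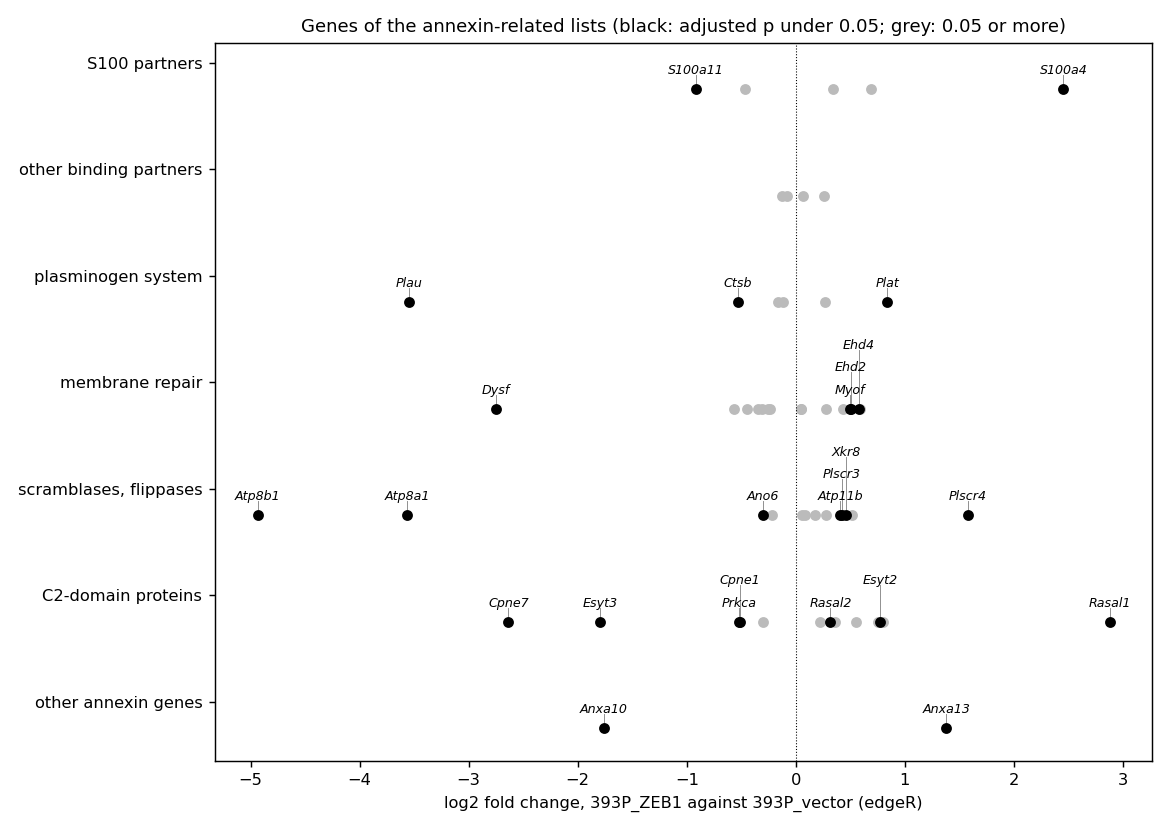
Log2 fold change between 393P_ZEB1 and 393P_vector samples of the tested genes in 7 lists of annexin-related genes, 1 point per gene. Black, named points passed the edgeR threshold, and they lie on both sides of 0 in 6 of the lists, from Atp8b1 at -4.94 to Rasal1 at 2.88.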

How the data were processed

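Gene tables of 6 RNA samples were used, 3 per group by their labels, from libraries made with the SOLiD total RNA-seq kit. The authors deposited unnormalized read counts for 24214 RefSeq features. They also deposited RPKM, the count scaled by length and total reads, and the number of exons with more than 10 reads. The aligner and counting program are not given in the sources used here. Coordinates are of GRCm38.

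Counts were tested in R 4.3.3 with edgeR 4.0.16 (filterByExpr with a minimum count of 10, TMM, robust quasi-likelihood fit, 1 coefficient for ZEB1, Benjamini-Hochberg adjustment over 13892 genes, threshold 0.05). The script was tested on simulated data with 200 changed genes. DESeq2 1.42.0 and limma 3.58.1 gave alternatives. CPM used TMM-scaled library sizes, and per-length levels were recomputed from counts. A floor of 3 counts was 0.0361 to 0.0561 CPM, for counting error only. Promoter and miRNA sequences were from RefSeq (GRCm38.p6). Figures and exact tests used Python 3.11.15 with SciPy 1.17.1.

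The text names all 10 annexins. From each related list it names up to 3 rises and 3 falls past the threshold with the largest fold change, and S100a10, S100a11, Ahnak, Pdcd6 and Sri. S100a6, S100a1 and the other lists' remaining members are given as counts. Pla2g4a, Plaur, Plg, the Fpr genes, the epithelial markers and Col1a1 were named after their values were seen. A listed gene is not reported here. The members and lists were chosen with earlier results of these data known.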

Additional observations from a re-analysis of the deposited data

How the results depend on the processing

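The annexin calls were repeated under other settings. Anxa6, Anxa4 and Anxa8 passed with each sample left out, with log2 fold changes of 0.91 to 1.05, -0.59 to -0.49 and -0.64 to -0.59. The count of annexins that rose was 1 to 3 with 1 sample left out, with 3 when 393P_vector replicate 3 was the one, and 3 under limma with sample weights, a setting chosen after seeing the data. These fits called 26.2% and 28.6% of all genes higher, against 18.3%. The count that fell was 2 with any 1 sample left out, in fits that called 12.6% to 26.8% of all genes lower. It was 0 when tested against a fold change of 1.5, which called 8.05% of all genes lower. Relative to the chromosome medians it was 1, a count also added after seeing the data, and 14.4% of all genes were lower there. A fit that blocks on replicate number gave log2 fold changes of 0.95 (Anxa6), -0.55 (Anxa4) and -0.62 (Anxa8), edgeR adjusted p 0.00287, 0.0159 and 0.00999, and the calls were the same. Deviations of same-numbered samples correlated at 0.19, -0.13 and -0.03, so the numbers were not taken to pair the samples. Anxa1 and Anxa9, which never passed, kept their sign under all settings, while Anxa2, Anxa7 and Anxa11 did not. Anxa2 ran from -0.025 to 0.14 with 1 sample left out, Anxa7 from -0.066 to 0.10 and Anxa11 from -0.19 to 0.11. Anxa7 was 0.11 under limma, and relative to the chromosome median Anxa7 was 0.25 and Anxa11 0.24. On the scale of counts instead of RPKM the share of Anxa6 rose by 5.16 percentage points, against 3.22, and that of Anxa7 changed by -0.17 against -0.06, since longer transcripts weigh more there. With 1 sample left out, the change in share ranged from 2.89 to 3.40 points for Anxa6 and from -0.11 to -0.02 for Anxa7. The cause of the changes in direction and in the counts was not tested. At 3 samples a group, a change of a size within the 95% interval of an annexin that did not pass is not excluded. Anxa9 had the fewest reads of the members, at 561 to 641 per sample, while the log2 fold change of Anxa3 had the largest standard error (0.20).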
